A study of Mus musculus with 6 samples.

Results

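Dermal fibroblasts were described in single-cell RNA profiles of mouse skin. A cell was taken as a fibroblast when Col1a1, Col1a2, Col3a1 and Dcn together reached at least 40 UMIs (unique molecular identifiers, each counted as 1 captured transcript) per 10000 UMIs of the cell, and at least 3 of these 4 genes had a UMI. It also had to have no UMI of the leukocyte gene Ptprc or the endothelial gene Pecam1, and under 20 UMIs per 10000 of the basal keratins Krt5 and Krt14 together. Members were thus chosen by measured levels of these 8 genes, which are not tested below. The rule found 59 fibroblasts among 21178 deposited cells.

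All 6 mice were of the NINJA strain, a line with a neoantigen that can be switched on, and were 6 to 12 weeks old. The skin area of every mouse had received 4-OH-Tam, controls included, and P14 CD8 T cells were recovered from each animal, per the labels' protocols. NO_AG was antigen off, AG was antigen on, and AG_CPI was antigen on with CPI, which the labels do not spell out. Each group held 2 mice, and each mouse gave 1 library (10x Genomics, 5' chemistry). Sex, batch and date are not in the labels, so p-values below measure the spread between these mice, whatever its source.

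Fibroblasts build the connective tissue of the dermis by secreting collagens, proteoglycans and the enzymes that crosslink and remodel them. Several kinds share the skin: papillary and reticular cells of the upper and lower dermis, Pi16-positive cells of the adventitia and fascia, and the specialised papilla and sheath cells around hair follicles, of which the sheath is contractile. Fibroblasts also sense interferons, make complement components and release chemokines that guide leukocytes.

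Depth was modest because fibroblasts were few. The libraries held 1736 to 4972 cells, and median UMIs per fibroblast ranged from 2892 in AG_CPI 2 to 5162.5 in AG 2. Fibroblasts of NO_AG summed to 168355 UMIs and those of AG to 75997. Between 44 and 119 barcodes of a library also occurred in another library, and 1 fibroblast carried such a barcode. AG_CPI 1 stood apart by the Y-linked gene Ddx3y: its only fibroblast had 1 UMI and no Xist, while fibroblasts of the other mice had no Ddx3y UMI.

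The collagen and decorin sums used for selection are given as a description. The median sum was 215 UMIs per 10000 and the highest was 1023. The lowest sums inside the rule were 40.6, 42.1 and 43.3, and the highest sums among cells left outside were 39.0, 37.8 and 32.8. In all, 54 fibroblasts had a sum of at least 80, 51 had all 4 genes, and 25 cells with a sum of 20 to 40 lay outside. Of 68 cells that met the collagen conditions, 5 had a Ptprc UMI, none had a Pecam1 UMI and 6 reached 20 UMIs of Krt5 and Krt14. Collagen outside the fibroblasts was scarce: mean Col1a1 in leukocytes was 0.458 per 10000 in NO_AG 1 and at most 0.0214 in the other mice.

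Marker genes outside the rule were those of fibroblasts. All 14 fibroblast markers were detected, but 4 of them are the collagen and decorin genes of the rule, whose detection the selection set. The others included Pdgfra, the receptor that marks most dermal fibroblasts, and the matrix genes Lum and Dpt. Pericyte genes Rgs5, Kcnj8, Abcc9 and Higd1b were at 0 in every fibroblast, as were Myh11 and Lmod1 of smooth muscle, Sox10 and Cdh19 of Schwann cells, and Cdh5, Emcn, Egfl7 and Cldn5 of endothelium. Lyz2, Tyrobp and Csf1r of myeloid cells, Adipoq, Plin1 and Cidec of fat cells and all 4 red cell genes were at 0 too. Other members of these lists were detected. Of 7 pericyte genes 3 (Pdgfrb, Notch3 and Cspg4) had a UMI in 21 cells, of which 6 had at least 2 of them, and the list summed to between 0.731 and 2.24 per 10000 in the NO_AG and AG mice. Of 5 Schwann genes 2 had a UMI in 16 cells, of 4 smooth muscle genes 2 in 5 cells, of 7 endothelial genes 3 in 5 cells, and of 7 myeloid genes 4 in 4 cells, each cell with 1 gene of the list. Lpl, a lipase of fat cells and 1 of 4 genes of their list, had a UMI in 36 cells and was between 4.49 and 8.08 per 10000 in 5 mice and at 0 in AG_CPI 2. Of 7 T cell genes 5 were detected, in 4 cells, and 1 cell of NO_AG 1 had at least 3 of them. Keratinocyte markers summed to between 2.90 and 3.77 per 10000 in the NO_AG and AG mice, and 49 of the 59 cells had no Krt5 or Krt14 UMI. Melanocyte genes, by contrast, were uneven: they summed to 1.31 and 11 per 10000 in NO_AG 1 and 2, while AG had 0.867 and 0 and AG_CPI had 0 and 1.32. A UMI of Dct, Pmel, Mlana or Tyr was present in 2 fibroblasts of NO_AG 1 and 4 of NO_AG 2.

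Fibroblasts were rare in every mouse. The NO_AG mice had 28 and 10, the AG mice 12 and 6, and the AG_CPI mice 1 and 2. As shares of all deposited cells these were 0.563% (Wilson 95% interval 0.390% to 0.813%) and 0.244% (0.133% to 0.449%) in NO_AG, then 0.343% (0.196% to 0.598%) and 0.129% (0.0590% to 0.280%) in AG. The AG_CPI mice had 0.0576% (0.0102% to 0.326%) and 0.0906% (0.0248% to 0.330%). The intervals cover counting error only. NO_AG and AG overlapped, and both AG_CPI mice lay below all 4 others.

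No difference in share was resolved with 2 mice a group. The log2 odds ratio of AG against NO_AG was -0.78 (two-sided exact permutation p = 0.667, n = 2 and 2 mice). AG_CPI gave -1.18 when set against AG and -1.96 when set against NO_AG, each with an exact permutation p of 0.33 (n = 2 and 2 mice), the smallest that 2 against 2 mice can give. The mice of AG_CPI also held the most leukocytes, 71.3% and 62.6% of their cells, against 23.8% to 44.9% in the others. Counted only among cells without a Ptprc UMI, fibroblasts made up 0.777% and 0.357% of the NO_AG cells, then 0.655% and 0.229% of those of AG and 0.224% and 0.275% of those of AG_CPI. On that denominator AG_CPI and AG overlapped, with a log2 odds ratio of -0.28 (exact permutation p = 1, n = 2 and 2 mice), while AG_CPI still lay below NO_AG (-0.69, exact permutation p = 0.33). AG_CPI and AG also overlapped when only cells without a Krt5 or Krt14 UMI were counted (-0.63, exact permutation p = 0.667). The part of the leukocyte share in the lower AG_CPI values was not tested further.

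**Figure D1:**
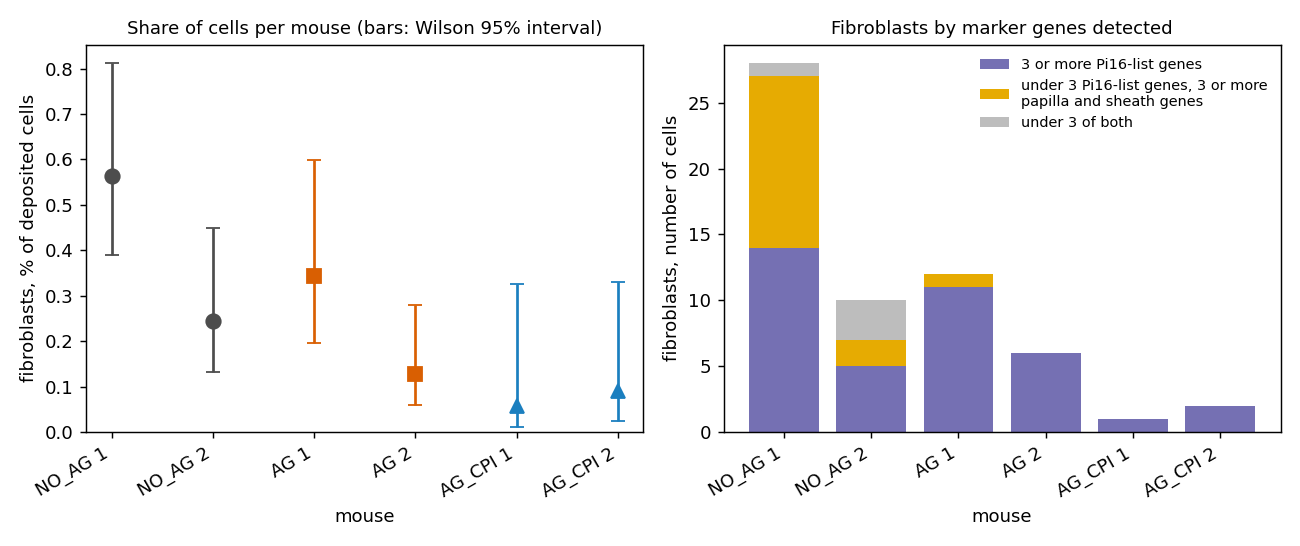
Left, fibroblasts as a percentage of the deposited cells of each mouse, with Wilson 95% intervals; right, the number of fibroblasts per mouse split by the marker genes they carry. NO_AG runs from 0.244% to 0.563% and AG_CPI stays at 0.0906% or less, and nearly all cells with papilla and sheath genes come from the NO_AG mice.

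The fibroblasts fell into 2 kinds by marker genes the selection did not use. Of the 7 measured genes of a Pi16 adventitial list (Pi16, Dpp4, Cd55, Ackr3, Mfap5, Sema3c and Anxa3), 39 cells carried 4 or more, 20 cells carried 2 or fewer, and none carried exactly 3. These 39 are called Pi16-like cells here. Their summed list level had a median of 81.6 UMIs per 10000 and a lowest value of 22.4. Above that value lay 2 cells with too few genes to be counted, both in NO_AG 2, at 23.7 and 132. The requirement of at least 3 genes was set after mean levels of the lists had been seen, so the split is a description and carries no test.

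Most of the 20 other cells carried hair follicle mesenchyme genes. With 3 or more of 16 papilla and sheath genes, such as Corin, Wif1, Hhip, Acta2, Tagln and Col11a1, 16 of them are called papilla and sheath-like. Their summed level of these genes had a median of 39.7 UMIs per 10000, while the median in Pi16-like cells was 0. Of the 16 cells, 13 also carried 2 or more papillary dermis genes, 11 in NO_AG 1, 1 in NO_AG 2 and 1 in AG 1. Single markers were sparse in them: in NO_AG 5 of 15 had Acta2, 4 had Tagln and 6 had Corin. Only 1 cell, in AG 2, carried at least 3 genes of both lists, and 4 carried fewer of each. The papilla and sheath-like cells had more UMIs per cell, with a median of 4894 against 3308.

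**Figure D2:**
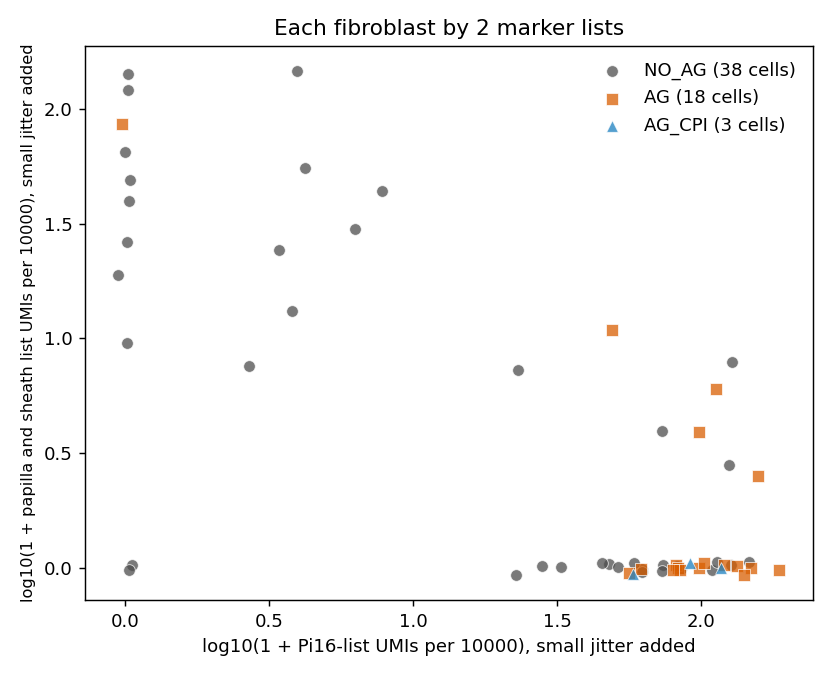
Each point is 1 fibroblast, placed by its summed Pi16-list level and its summed papilla and sheath level, both as log10 of 1 plus UMIs per 10000. Most cells lie near 1 of the axes, 15 cells have a level above 0 of both lists and 2 are at 0 of both, and 15 of the 16 papilla and sheath-like cells are from NO_AG.

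The mice differed in their numbers of each kind. Pi16-like cells were 14 of 28 and 5 of 10 fibroblasts in NO_AG, or 50% in each mouse. They were 11 of 12 (91.7%) and 6 of 6 (100%) in AG, and all 3 fibroblasts of AG_CPI. Papilla and sheath-like cells numbered 13 and 2 in NO_AG, 1 and 0 in AG, and 0 in both AG_CPI mice. With every cell thinned to 1500 UMIs, the Pi16-like share was 46.4% and 40% in NO_AG, 83.3% and 100% in AG, and 100% in both AG_CPI mice. Thinned cells with 3 or more papilla and sheath genes numbered 9 and 1 in NO_AG, 1 and 0 in AG, and 0 in both AG_CPI mice. A share of 100% rests on 6, 1 or 2 cells, and predicted doublets were 3 cells of NO_AG 2, which leaves 7 there.

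Leading genes were taken from the NO_AG mice, where both kinds occurred, and are described without a test. In Pi16-like cells they were Clec3b, Gpx3, Igfbp6, Cxcl13 and C3. Clec3b, which encodes the secreted protein tetranectin, had a mean of 45.3 and 70.4 UMIs per 10000 in NO_AG 1 and 2. Gpx3, an extracellular glutathione peroxidase, had 28.3 and 47.6. Cxcl13, the chemokine that attracts B cells, had 26.6 and 15.0, and the complement gene C3 had 22.8 and 18.4. None of these 5 genes had a UMI in the 15 papilla and sheath-like cells of NO_AG.

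In papilla and sheath-like cells the leading genes were Serpine2, Cd24a, Igfbp2, Sparcl1 and Lrrc15. They were detected in 4 (Igfbp2) to 10 (Lrrc15) of the 15 cells, and the values of NO_AG 2 rest on 2 cells. Serpine2, a serine protease inhibitor found in 6 of the 15, had a mean of 12.6 and 65.0 UMIs per 10000 in NO_AG 1 and 2, against 0.301 and 0 in Pi16-like cells of the same mice. Lrrc15, a membrane protein often found on myofibroblasts, had 7.95 and 6.49 against 0 and 0. The Hedgehog receptor gene Ptch1, itself a target of that pathway, was at 3.69 and 2.90 in papilla and sheath-like cells and at 0 in Pi16-like cells of both mice. Wif1, a secreted Wnt inhibitor, was at 5.2 and 1.39 against 0 and 0.

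Genes of general fibroblast biology also differed in level between the kinds. Vim, the intermediate filament of mesenchymal cells, was at 108 and 69.8 UMIs per 10000 in papilla and sheath-like cells of NO_AG and at 18.9 and 14.1 in Pi16-like cells. Gsn, which severs actin filaments, was at 1.55 and 2.32 against 136 and 179. B2m, the shared light chain of class I molecules, was at 1.52 and 1.97 against 10.0 and 8.16, and Ifitm3, an interferon-induced membrane protein, at 3.73 and 1.39 against 14.5 and 23.7. Dcn, a gene of the selection rule, was at 3.36 and 0.985 against 102 and 85.4, while Col1a1, Col1a2 and Col3a1 carried the papilla and sheath-like cells past the minimum. A mean over all fibroblasts of a mouse therefore depends on how many cells of each kind it holds.

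Gene levels were compared between AG and NO_AG only, because the AG_CPI mice had 1 and 2 fibroblasts. Across 3602 tested genes no gene passed a Benjamini-Hochberg adjusted p of 0.05 in limma (percent called 0.0, smallest adjusted p 0.312). At an unadjusted p under 0.05 there were 239 genes, or 6.64%, of which 121 (3.36%) were higher and 118 (3.28%) lower in AG. The median log2 difference over all tested genes was -0.13. Both AG mice lay above both NO_AG mice in 15.4% of genes and below them in 21.2%.

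No gene was called in the same fit with another scaling or pseudocount either. The count was 3 with UMIs summed over cells, and 12 to 19 with any 1 of the 4 mice left out, where the lone mouse of a group is assumed to vary like the other group. Restricting the fit to Pi16-like cells left 1933 genes, none called (0.0%, smallest adjusted p 0.968 in limma), 82 (4.24%) at an unadjusted p under 0.05, of which 2.07% of genes were higher and the rest lower, and a median log2 difference of 0.01.

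The genes with the smallest p in the higher direction were Ifi27l2a, Mfap5, C4b, Mmp23 and Igfbp6, none of them called. Ifi27l2a, an interferon-induced gene, had a mean of 3.51 and 7.69 UMIs per 10000 in NO_AG and 20.8 and 25.3 in AG. The groups did not overlap, with a log2 difference of 2.17 (SE 0.39, limma adjusted p 0.402). In Pi16-like cells alone its levels were 5.45 and 15.4 in NO_AG and 22.7 and 25.3 in AG, a log2 difference of 1.38.

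C4b, a complement component, was at 0.716 and 2.57 UMIs per 10000 in NO_AG and at 7.85 and 11 in AG. Its log2 difference was 2.73 (SE 0.55, limma adjusted p 0.467), and 1.92 in Pi16-like cells, where it was at 1.43 and 4.34 against 8.56 and 11. In keratinocytes of the same mice C4b had a mean of at most 0.0324 per 10000.

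Mmp23, a membrane-bound metalloprotease, was at 1.46 and 0.960 UMIs per 10000 in NO_AG and 5.16 and 4.80 in AG. Its log2 difference of 2.04 (SE 0.44) was 1.62 in Pi16-like cells. Mfap5, a microfibril component and a gene of the Pi16 list, was at 6.89 and 9.55 in NO_AG and 22.3 and 24.2 in AG, with a log2 difference of 1.56 that came to 0.68 in Pi16-like cells. Igfbp6, which binds insulin-like growth factor 2, was at 13.1 and 13.0 in NO_AG and 33.9 and 28.7 in AG, and its log2 difference was 1.31 over all fibroblasts and 0.36 in Pi16-like cells.

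In the lower direction the smallest p-values belonged to Tpm1, Enpp2, Igfbp2, Tagln and Acta2, again none of them called. Tpm1, a tropomyosin that lies along actin filaments, was at 6.27 and 6.30 UMIs per 10000 in NO_AG and at 0.804 and 0.724 in AG (log2 difference -2.83, SE 0.43, limma adjusted p 0.312). In Pi16-like cells it was at 0.695 and 1.04 against 0.730 and 0.724, and the groups overlapped. The papilla and sheath-like cells of NO_AG carried 12.6 and 19.7.

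The other 4 genes had 0 to 3 UMIs in the AG mice and passed the filter on low values through NO_AG. Acta2, smooth muscle actin, was at 3.37 and 8.99 UMIs per 10000 in NO_AG and at 0 and 0.718 in AG, or 209 against 3 UMIs, a ratio of 31.4 per UMI captured (exact interval 10.6 to 154, counting error only). Tagln, an actin-binding protein of contractile cells, had 81 UMIs in NO_AG and 0 in AG, at least 12.2-fold lower against a floor of 3 UMIs over the group. Igfbp2, a binding protein of insulin-like growth factors, had 77 and 0 UMIs, at least 11.6-fold lower.

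Enpp2, which makes the signalling lipid lysophosphatidic acid, was at 4.2 and 2.47 UMIs per 10000 in NO_AG and at 0.135 and 0 in AG. It had 60 against 1 UMIs, a ratio of 27.1 (interval 4.68 to 1087). In Pi16-like cells of the NO_AG mice Acta2, Tagln, Igfbp2 and Enpp2 all stood at 0, and in papilla and sheath-like cells of these mice Acta2 was at 7.25 and 45.0.

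**Figure D3:**
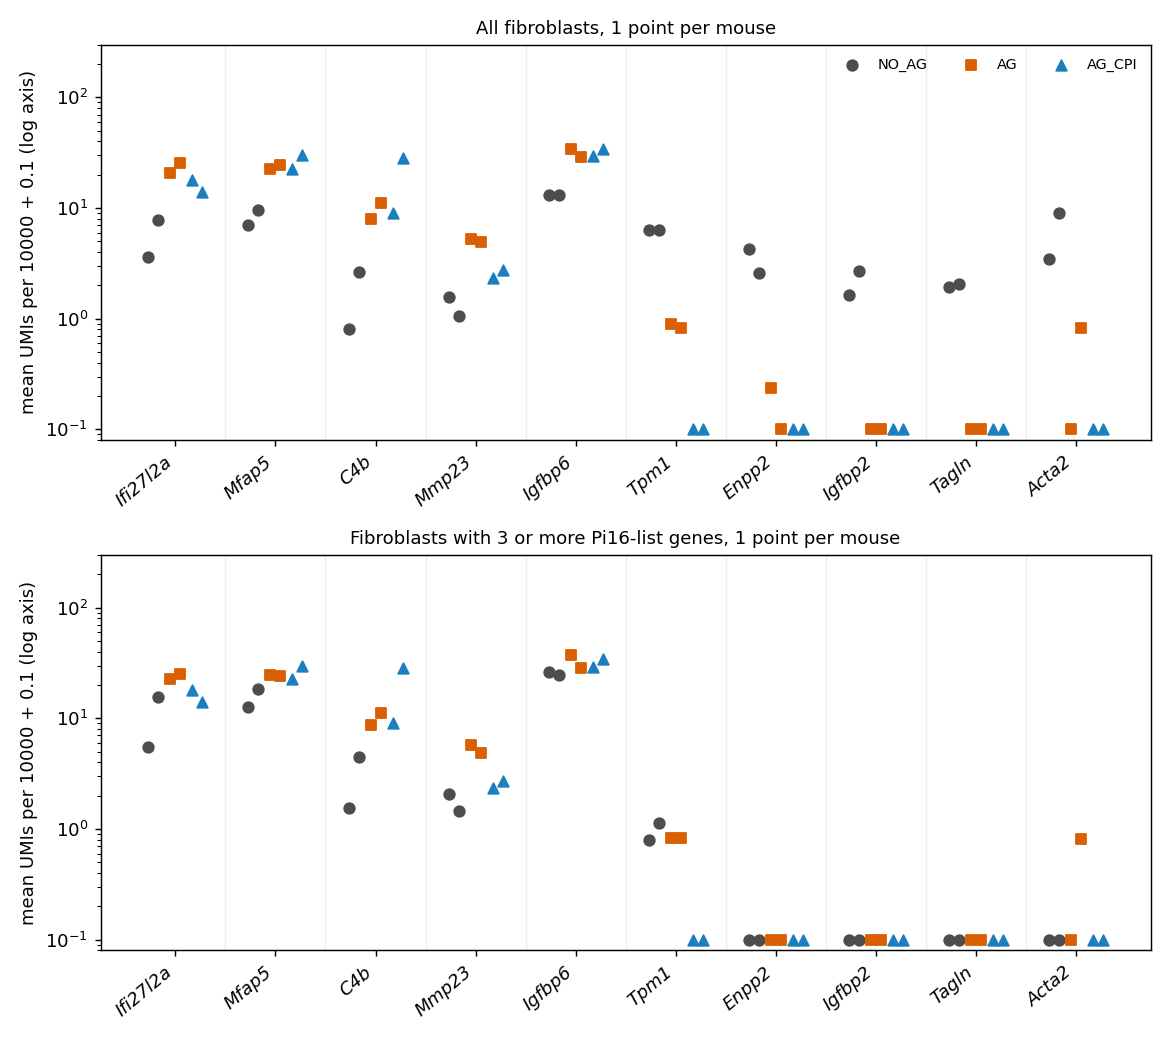
Mean UMIs per 10000 plus 0.1, on a log axis, of the 10 genes with the smallest p in either direction, 1 point per mouse, for all fibroblasts (top) and Pi16-like cells (bottom). The 5 genes at the right lie high in NO_AG in the top panel only: there Tpm1 is at 6.27 and 6.30, and in the lower panel at 0.695 and 1.04.

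Type I interferon-stimulated genes, which are induced through the interferon receptor and restrict viruses, were mostly too scarce to test. Of 37 listed, 9 passed the filter on low values and none was called. Both AG mice lay above both NO_AG mice in 8 of these 9, where 15.4% of all tested genes did so, and 5 were higher at an unadjusted p under 0.05 (3.36% of all genes; 2 of 9 in Pi16-like cells, beside 2.07%). Their median log2 difference was 1.13, beside -0.13 over all genes. Ifih1, among both the 8 and the 5, had 2 and 2 UMIs in the NO_AG mice and 4 and 7 in AG. It passed the filter through AG and had to come out higher, so these counts and the median are a description only. In Pi16-like cells the same 8 of 9 were higher in both AG mice after scaling (15.9% of all genes), with a median of 0.66 beside 0.01.

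Ifitm3 had the highest level of the list. Its mean was 9.06 and 14.1 UMIs per 10000 in NO_AG and 22.4 and 28.1 in AG, without overlap, and its log2 difference was 1.20 (SE 0.32, limma adjusted p 0.634). In Pi16-like cells it was at 14.5 and 23.7 against 23.8 and 28.1. The log2 difference in these cells was 0.48.

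Ifi27, which sits in mitochondrial membranes, was at 1.67 and 1.66 UMIs per 10000 in NO_AG and at 4.27 and 4.31 in AG. Its levels overlapped between both kinds of NO_AG fibroblast, at 1.96 and 0.903 in Pi16-like cells and 1.22 and 0.927 in papilla and sheath-like cells. Its log2 difference was 1.37 over all fibroblasts and 1.68 in Pi16-like cells. Ly6e, a lipid-anchored surface protein, was at 2.11 and 3.06 against 5.04 and 5.95, and Ifih1, a sensor of viral RNA, at 0.199 and 0.391 against 1.05 and 2.35. Isg15 did not pass the filter and was at 0.227 and 0 in NO_AG and 0.193 and 0.877 in AG.

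The interferon-gamma response list was tested in 7 of 35 genes, none called, with 4 above in both AG mice (15.4% of all genes), 3 higher at an unadjusted p under 0.05 (3.36% of all genes) and a median log2 difference of 1.03. In Pi16-like cells 6 were tested, 3 lay above after scaling (15.9% of all genes), 1 was higher at an unadjusted p under 0.05 (2.07%), and the median was 0.37. The 4 above over all fibroblasts were Serping1, Psme1, Psme2 and Ifngr2. The lists share genes: Serping1 is counted again among complement genes, and Psme1 and Psme2 among class I genes. Psme1 and Psme2 encode the proteasome activator that interferon-gamma induces. Psme1 was at 1.71 and 1.92 UMIs per 10000 in NO_AG and 3.57 and 3.73 in AG, and in Pi16-like cells at 1.93 and 1.10 against 3.16 and 3.73. Psme2 was at 1.77 and 0.0927 against 3.75 and 3.17.

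Hallmark genes of the interferon-gamma response were at or near the limit of detection. Cxcl9, a chemokine for T cells, had no UMI in NO_AG fibroblasts and a mean of 0.151 and 0.438 per 10000 in AG. Cxcl10, of the same family, had none in NO_AG and 0.252 and 0.877 in AG. The checkpoint ligand Cd274 was at 0 and 0.163 in NO_AG and at 0 in both AG mice. Cxcl9, Cxcl10 and Cd274 did not pass the filter.

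Class I antigen presentation genes, which display peptides to CD8 T cells, had 17 of 24 members tested and none called. Of these, 3 were above and 2, Psmb9 and Canx, below in both AG mice (15.4% and 21.2% of all genes). The median log2 difference was 0.20 (0.13 over 14 genes in Pi16-like cells). Low genes could pass the filter through NO_AG and then tended to come out lower, so the counts are a description only. B2m was at 6.24 and 11.8 UMIs per 10000 in NO_AG and 11.2 and 9.27 in AG, and H2-K1, a heavy chain, at 3.53 and 9.61 against 5.04 and 8.30, so that both overlapped. The B2m overlap rested on 1 cell of NO_AG 2 with 4 melanocyte genes and 44.5 UMIs of B2m per 10000, without which NO_AG 2 was at 8.13, below both AG mice. H2-D1, another heavy chain, was at 5.2 and 8.76 against 9.01 and 9.38, a log2 difference of 0.49, and in Pi16-like cells it overlapped at 8.79 and 6.16 against 7.17 and 9.38, a difference of 0.16. In Pi16-like cells B2m was at 10.0 and 8.16 in NO_AG and 10.1 and 9.27 in AG, which overlapped without that cell. The same cell of NO_AG 2 also held 44.5 UMIs of H2-K1 and 35.6 of H2-D1 per 10000. In AG 1 the 1 papilla and sheath-like cell held 29.2 of H2-D1. Without it AG 1 was at 7.17, below the 8.76 of all NO_AG 2 cells. None of the 8 class II genes passed the filter, and Cd74, the invariant chain, stayed between 0 and 0.723.

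**Figure D4:**
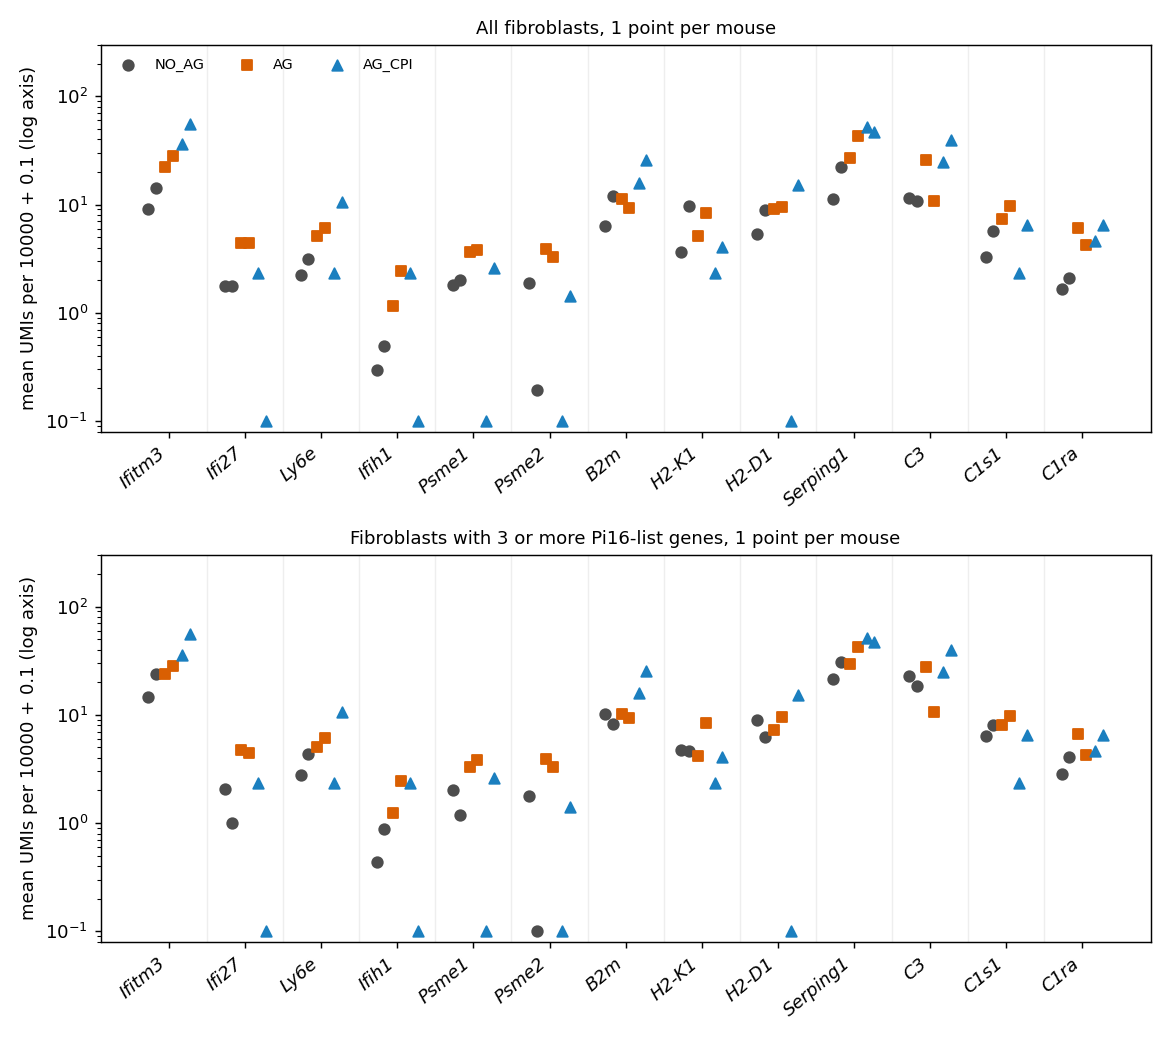
Mean UMIs per 10000 plus 0.1, on a log axis, of interferon-stimulated, antigen presentation and complement genes, 1 point per mouse, for all fibroblasts (top) and Pi16-like cells (bottom). Ifi27 and Psme1 keep AG above NO_AG in both panels, B2m of AG and NO_AG overlaps in both, and AG_CPI points, from 1 and 2 cells, straddle NO_AG for Ifi27 and Psme1.

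Complement genes, which tag microbes and damaged cells for removal, had 6 of 14 members tested and none called. Both AG mice lay above both NO_AG mice in 5 of the 6 (15.4% of all genes). At an unadjusted limma p under 0.05, 4 were higher (3.36% of all genes), and the median log2 difference was 1.09. In Pi16-like cells 4 of 6 lay above after scaling (15.9% of all genes). There 1 of 6 was higher at an unadjusted limma p under 0.05 (2.07% of all genes), and the median was 0.39. Serping1, the inhibitor of the C1 complex, was at 11.3 and 22 UMIs per 10000 in NO_AG and at 26.8 and 42.5 in AG, with a log2 difference of 1.15 (SE 0.38, limma adjusted p 0.713). In Pi16-like cells it was at 21.2 and 30.3 against 29.1 and 42.5, a log2 difference of 0.47.

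The proteases of the C1 complex had lower levels. C1ra was at 1.58 and 2.01 UMIs per 10000 in NO_AG and 6.01 and 4.11 in AG, and C1s1 at 3.16 and 5.60 against 7.22 and 9.70. C3, the central component, was at 11.4 and 10.8 in NO_AG and 25.5 and 10.6 in AG. AG 1 alone was high for C3, and the groups overlapped. In Pi16-like cells the log2 difference was 0.63 for C1ra, 0.30 for C1s1 and -0.25 for C3, where it had been 1.49, 1.03 and 0.62 over all fibroblasts.

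Chemokines and growth factors were sparse. Of 22 chemokine genes, 5 passed the filter, none was called, and the median log2 difference was 0.73 (0.24 in Pi16-like cells). Ccl11, eotaxin, which attracts eosinophils, was at 3.90 and 3.66 UMIs per 10000 in NO_AG and 8.58 and 8.53 in AG, a log2 difference of 1.21 (SE 0.34) that came to 0.53 in Pi16-like cells. Cxcl13 was at 13.3 and 7.49 in NO_AG and at 17.3 and 1.24 in AG: AG 1 was the highest and AG 2 the lowest of these 4 mice. Cxcl12, which retains leukocytes through Cxcr4, was at 0.369 and 0.742 against 0 and 1.44, and Ccl2 had no UMI in any fibroblast.

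Of 43 cytokine and growth factor genes and their receptors 16 were tested and none was called, with 5 above and 2 below in both AG mice (15.4% and 21.2% of all genes) and a median log2 difference of 0.12. Igf1, insulin-like growth factor 1, was at 0.719 and 1.38 UMIs per 10000 in NO_AG and 1.82 and 3.70 in AG (log2 difference 1.35, and 1.61 in Pi16-like cells). Il33, an alarmin, was at 0.530 and 0.912 against 1.79 and 1.24, but the groups overlapped in Pi16-like cells at 1.06 and 1.82 against 1.95 and 1.24. Wnt5a, Rspo1 and Rspo3 are secreted activators of Wnt signalling, and none was called. Wnt5a was at 2.46 and 1.37 in NO_AG and 1.04 and 0 in AG, but in Pi16-like cells at 0.715 and 0.456 against 0.687 and 0, which overlapped. Rspo1 had 17 UMIs in NO_AG and none in AG, at least 2.56-fold lower by value. It is 1 of the 2 below, passed the filter through NO_AG and had to come out lower. The count below is thus a description only. In Pi16-like cells Rspo1 was at 0.372 and 0 in NO_AG and at 0 in both AG mice. Rspo3 overlapped at 2.00 and 8.47 against 3.74 and 0.877.

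Collagen genes beyond the 3 of the rule had 15 of 18 members tested, none called, 2 above and 3 below in both AG mice (15.4% and 21.2% of all genes), and a median log2 difference of -0.26 (0.06 over 11 genes in Pi16-like cells). Col6a3, a chain of the beaded microfibrils of collagen VI, was at 14.9 and 4.64 UMIs per 10000 in NO_AG and 6.4 and 8.84 in AG, and Col5a2 of the fibre-regulating collagen V at 4.34 and 6.05 against 3.92 and 9.95. Both overlapped. Col12a1, which decorates collagen fibres, had 27 UMIs in NO_AG and none in AG, at least 4.06-fold lower. It is 1 of the 3 below, passed the filter through NO_AG and had to come out lower. The count and median are thus a description only. In Pi16-like cells Col12a1 was at 0 and 0.387 in NO_AG and at 0 in both AG mice.

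Matrix glycoproteins and proteoglycans had 32 of 38 members tested and none called. In both AG mice 13 lay above and 4 below (15.4% and 21.2% of all genes), with a median log2 difference of 0.27. The 4 below were Postn, Prelp, Fmod and Vcan. In this list 1 tested gene had no UMI in 1 of the groups. The filter set its direction, so the counts and median are a description only. In Pi16-like cells 28 were tested, 5 lay above and 5 below after scaling, near the 15.9% and 16.3% of all genes, and the median was 0.16. Sparc, which binds collagen, had the highest level of the list at 61.5 and 59.7 UMIs per 10000 in NO_AG and 29.5 and 73.3 in AG. Fbln1, a basement membrane and elastic fibre protein, was at 0.663 and 0.228 against 3.94 and 1.62, and in Pi16-like cells at 0.993 and 0.456 against 4.01 and 1.62. Its log2 difference was 2.45 over all fibroblasts and 1.77 in Pi16-like cells.

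Fbn1, the backbone of elastic microfibrils, was at 7.85 and 12.6 UMIs per 10000 in NO_AG and 14.9 and 23.4 in AG, a log2 difference of 0.96 that came to 0.20 in Pi16-like cells. Lum, which spaces collagen fibrils, was at 4.00 and 11.7 against 7.91 and 11.1 and overlapped. Matrix proteases, inhibitors and crosslinkers had 28 of 36 members tested and none called. In both AG mice 13 lay above and 3 below (15.4% and 21.2% of all genes), and the median was 0.53. Of the 3, Adamts1 (13 against 3 UMIs) and Adamts12 (9 against 2) passed the filter mainly through NO_AG and tended to come out lower. The counts and median are thus a description only. In Pi16-like cells 21 were tested, 4 lay above and 0 below after scaling (15.9% and 16.3% of all genes), and the median was 0.16. Mmp2, a gelatinase, was at 5.70 and 13.6 in NO_AG and 15.1 and 15.9 in AG. Loxl1, which crosslinks elastin, was at 2.15 and 7.08 against 10.1 and 9.19. In Pi16-like cells Mmp2 and Loxl1 overlapped.

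Contractile and myofibroblast genes build and regulate actin bundles. Of 26 listed, 23 were tested and none was called, 13 lay below and 1 above in both AG mice (21.2% of all genes lay below), and 7 were lower at an unadjusted p under 0.05 (3.28% of all genes). Tagln, Actn1, Acta2, Lrrc15, Cnn2 and Ltbp4 had 0 to 3 UMIs in AG and passed the filter on low values through NO_AG, so they had to come out lower, and the counts and median are a description only. The median log2 difference was -0.85, and -0.85 also with the 2 genes without an AG UMI set to their bounds. In Pi16-like cells 13 were tested, 3 lay below after scaling (16.3% of all genes), and the median was -0.05. Actb, the most abundant member, was at 27.1 and 26.9 UMIs per 10000 in NO_AG and 19.9 and 21.3 in AG, and in Pi16-like cells at 13.2 and 17.9 against 15.4 and 21.3.

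Lrrc15 was at 4.14 and 1.30 UMIs per 10000 in NO_AG and at 0 and 0.718 in AG, or 98 against 3 UMIs (ratio 14.7, interval 4.90 to 72.7). Vim, which was on no list, was at 61.2 and 33.3 in NO_AG and 16.4 and 21.4 in AG, a log2 difference of -1.21 (SE 0.35), and in Pi16-like cells at 18.9 and 14.1 against 12.8 and 21.4, which overlapped. Wnt and Hedgehog genes had 17 of 30 members tested, none called, 3 above and 9 below in both AG mice (15.4% and 21.2% of all genes) and a median of -0.76 (-0.20 over 7 genes in Pi16-like cells). Of the 9 below, Lef1 (9 against 1 UMIs), Dkk2 (11 against 1), Lrp6 (17 against 3) and Wif1 (36 against 1) passed the filter through NO_AG and had to come out lower, so the count and median are a description only. Above in both AG mice were Tgfbr2, a receptor of TGF-beta, and Sfrp4, Fzd1 and Prrx1. In Pi16-like cells only Fzd1, a Wnt receptor, stayed above after scaling (log2 difference 1.93), while Sfrp4 and Prrx1 overlapped and Tgfbr2 lay below (-0.055). Papilla and sheath-like cells were also more numerous in NO_AG, and their part in these levels beyond the Pi16-like values given here was not tested.

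The remaining lists had no called gene either. Immediate early and dissociation stress genes had 25 of 30 members tested and a median log2 difference of 0.04, with Jun, a component of the AP-1 factor, at 10.6 and 9.96 UMIs per 10000 in NO_AG and 19.6 and 5.0 in AG. Imprinted genes had 9 of 29 tested and a median of 0.01 (0.63 over 6 genes in Pi16-like cells), with the long noncoding RNA Meg3 at 2.59 and 3.66 against 1.82 and 3.41. Lipid handling genes had 17 of 27 tested and a median of -0.12, with Apod, a lipid carrier, at 8.26 and 9.61 against 9.14 and 4.84. Cell cycle genes had 8 of 26 tested and a median of -0.99 (-0.52 over 5 genes in Pi16-like cells), and 4 lay below in both AG mice (21.2% of all genes). Of these 4, Birc5 (20 against 0 UMIs), Stmn1 (54 against 2) and Cdkn1b (23 against 2) passed the filter through NO_AG and had to come out lower, so these values too are a description only. Tubb5, a tubulin, was at 7.17 and 4.13 against 2.22 and 2.87, and in Pi16-like cells it overlapped at 1.87 and 5.04 against 1.54 and 2.87. Checkpoint and costimulatory ligands had 5 of 20 tested and a median of -1.05. That median is the value of Hmgb1, a nuclear protein released as an alarmin, at 8.53 and 4.31 against 1.73 and 4.40 with overlap, while Lgals9, a galectin, was at 1.07 and 1.19 against 1.38 and 3.34, a log2 difference of 0.93. In Pi16-like cells Lgals9 overlapped at 2.08 and 2.39 against 1.51 and 3.34, a difference of 0.019.

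Genes with a high level in Pi16-like cells are given for both sets of cells. Pi16, a peptidase inhibitor, was at 8.85 and 31.9 UMIs per 10000 in NO_AG and 40.6 and 35.3 in AG, a log2 difference of 1.22, and in Pi16-like cells at 17.7 and 33.3 against 44.3 and 35.3, a difference of 0.71. Gsn was at 69.0 and 95.9 against 199 and 125. In Pi16-like cells Gsn was at 136 and 179 against 217 and 125 and overlapped. Dpp4, a surface peptidase, was at 1.72 and 2.47 against 3.33 and 2.17 and overlapped, as it did in Pi16-like cells at 3.44 and 4.93 against 3.64 and 2.17. Pdgfra was at 5.35 and 3.33 against 1.12 and 7.83, with the AG mice at either end, and in Pi16-like cells at 7.93 and 4.65 against 1.22 and 7.83, which overlapped.

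Whether the difference between AG and NO_AG was larger or smaller in fibroblasts than in keratinocytes of the same mice was tested on the within-mouse difference. No gene of 3185 passed in limma (percent called 0.0, smallest adjusted p 0.745), and 197 genes (6.19%) had an unadjusted p under 0.05, 2.39% of all genes with a larger and 3.8% with a smaller value in fibroblasts. The difference in Ifi27l2a was smaller in fibroblasts by value but not called: keratinocytes were at 0.984 and 1.68 UMIs per 10000 in NO_AG and 20.4 and 14.4 in AG, and the difference between the cell types was -1.55 on the log2 scale (SE 0.54, limma adjusted p 0.745). Ifi27 stood the other way, with keratinocytes at 1.63 and 1.88 against 1.81 and 1.00 and a difference of 1.63 (SE 0.55, limma adjusted p 0.745). Of 8 type I interferon-stimulated genes tested here, 6 had a smaller value in fibroblasts and 5 did so without overlap (23.6% of all genes), with a median of -0.68 beside -0.20 over all genes. Of these 5, Sp100 (8 UMIs in NO_AG fibroblasts against 3 in AG) passed the filter mainly through NO_AG and tended to come out smaller. Ifih1 passed through AG and tended to come out larger, so these counts and the median are a description only. Of 17 class I genes 4 had a larger value in fibroblasts (41.3% of all genes) and 13 a smaller one, with a median of -0.51. Psme1 was larger without overlap (14.3% of all genes), and 5 were smaller without overlap (23.6%). Among the 5 class I genes, Psmb9 (11 UMIs in NO_AG fibroblasts against 3 in AG) passed the filter mainly through NO_AG and tended to come out smaller. The class I counts and median are thus a description only. None was called.

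B2m in keratinocytes was at 13.5 and 12.5 UMIs per 10000 in NO_AG and at 22.5 and 20.2 in AG, without overlap, where fibroblasts overlapped, and the difference between the cell types was -0.51 (SE 0.68, limma adjusted p 0.874). As above, the fibroblast overlap rested on 1 cell. The genes with the smallest p for a larger value in fibroblasts were Adamtsl5, Klf9, Angptl4, Prss23 and Il6ra, none called. Prss23, a serine protease and the most abundant of them, was at 6.27 and 6.27 in NO_AG fibroblasts and 11.7 and 12.7 in AG, against 0.466 and 0.419 and then 0.207 and 0.0952 in keratinocytes. Klf9, a transcription factor induced by glucocorticoids, was at 1.07 and 0.850 against 2.60 and 2.23 in fibroblasts. In the opposite direction stood Igfbp2, Col12a1, Mid1ip1, Setd1b and Tagln, all at 0 in both AG mice, so they passed the filter through NO_AG. The fibroblast values here are means over all fibroblasts, and the Pi16-like share differed between NO_AG and AG. With Pi16-like cells alone the comparison with keratinocytes covered 1693 genes and called 0 (smallest limma adjusted p 0.857).

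The 3 fibroblasts of AG_CPI are described without a test. They carried Pi16 at 11.2 UMIs per 10000 in AG_CPI 1 and 38.5 in AG_CPI 2. Acta2, Tagln, Igfbp2, Enpp2 and Tpm1 had no UMI among the 4457 UMIs of the cell from AG_CPI 1 or the 5784 of the cells from AG_CPI 2. A count of 0 there allows up to 8.28 and 6.38 UMIs per 10000 (upper exact Poisson 95% bounds). Both bounds lay above the summed levels of Igfbp2, Enpp2 and Tagln in each NO_AG mouse, so a lower level of these 3 genes in AG_CPI was not detectable at this depth. Tpm1, at 8.62 and 9.84 UMIs per 10000 when summed over the NO_AG cells, and Acta2, at 9.29 and 20.3, lay above both bounds. In Pi16-like cells of the NO_AG mice, the kind to which all 3 AG_CPI cells belonged, Acta2 was at 0 and Tpm1 at 0.695 and 1.04.

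For genes with UMIs the exact Poisson 95% intervals of summed counts were wide. Ifitm3 had 16 UMIs in AG_CPI 1, or 35.9 per 10000 (20.5 to 58.3), and 27 in AG_CPI 2, or 46.7 (30.8 to 67.9). Serping1 had 23, or 51.6 (32.7 to 77.4), and 24, or 41.5 (26.6 to 61.7). B2m had 7, or 15.7 (6.31 to 32.4), and 13, or 22.5 (12.0 to 38.4). Set against Pi16-like cells of NO_AG, where the summed levels were 16.4 and 25.2 for Ifitm3 and 22.4 and 31.3 for Serping1, the interval of 1 AG_CPI mouse cleared both NO_AG mice for each gene and that of the other did not.

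C4b and Cxcl13 had fewer UMIs in AG_CPI 1 than in AG_CPI 2. C4b had 4 UMIs in AG_CPI 1, or 8.97 per 10000 (2.45 to 23), and 17 in AG_CPI 2, or 29.4 (17.1 to 47.1), and these intervals overlapped. Cxcl13 had 4, or 8.97 (2.45 to 23), and 25, or 43.2 (28.0 to 63.8). The intervals cover counting error within the captured cells and say nothing of the spread between mice or cells. Isg15 had 1 and 4 UMIs, and Ccl7, which attracts monocytes, had 4 and 1.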

How the data were processed

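The authors deposited, per sample, a table of genes by cells whose values are on a log10 scale: log10 of 1 plus the UMIs per 10000 in that cell. No label states this scale. Taking the smallest value of each cell as 1 UMI, inverting log10 gave whole UMIs for 100% of the values above that smallest one (within 0.02 UMIs, and in proportion to the value above 50 UMIs), while inverting a natural log did so for 2.19% to 3.52%. Cell Ranger 3.1 and the mm10 build are named per the submitters' processing notes. Groups were taken from the labels (2 mice each).

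Values were converted back to UMIs per 10000 and averaged over the fibroblasts of each mouse. These means were scaled by TMM, a pseudocount of 0.1 was added, and log2 values were tested with limma 3.58.1 (trend) in R 4.3.3 with Benjamini-Hochberg adjustment over all tested genes. A fold change on this scale understates the change of low genes. Tested genes had at least 10 UMIs and a mean of 0.1 in at least 2 libraries. The 8 genes of the selection and keratinocyte rules were left out. A gene with few UMIs in 1 group could pass through the other group, which then set its direction. Of the 3602 genes tested between AG and NO_AG, 47 had no UMI in either AG mouse and 1 had none in either NO_AG mouse. Counts and medians of all lists are thus a description only. Keratinocytes, for comparison, had Krt5 and Krt14 summing to at least 20, no Ptprc or Pecam1 UMI and a collagen sum under 40. Statements that groups did not overlap in list counts use the scaled means, while printed levels are unscaled. The script was tested on simulated data.

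A minimum of 10 fibroblasts a library had been planned, which AG 2 and both AG_CPI mice missed; it was lowered to 5 after the numbers of cells were seen, so only AG against NO_AG was tested. The members and lists were chosen with earlier results of these data known. Genes named are the 5 with the smallest p in each direction without overlap, defining genes, some of the 2 members of each list with the highest level, and further members chosen after their values were seen. Doublets, predicted with Scrublet in scanpy 1.11.5, were kept in the main values. Alternatives changed the scaling, pseudocount, filter, doublets, collagen minimum, averaging, depth, replicates and kinds of cell.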

Additional observations from a re-analysis of the deposited data

How the results depend on the processing

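The count of genes called between AG and NO_AG was 0 in limma under the scaling, pseudocount, filter, doublet, collagen minimum, thinning, Pi16-like and melanocyte alternatives, where 74 to 408 genes had an unadjusted p under 0.05. It was 3 with UMIs summed over cells (Igfbp2, Tagln and Tpm1, all lower) and between 12 and 19 with 1 mouse left out: 12 without NO_AG 1 or NO_AG 2, 19 without AG 1 and 13 without AG 2. The difference between fibroblasts and keratinocytes called 0 genes in every setting run. The Pi16-like and melanocyte alternatives were chosen after seeing the data.

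Replicate numbers are shared between groups but nothing says that they pair mice, and deviations of same-numbered mice correlated with r = 0.03 over 3602 genes. With the replicate number as a block the count was 5: C4b and Ifi27l2a higher, Acta2, Coch and Tpm1 lower.

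Of 741 values of 43 named genes, 18 reversed and 31 were called, with a mouse left out, with UMIs summed or with the block; the cause was not tested. Of the genes that reversed, Cxcl13 was called without AG 1 and Vim without NO_AG 2. With 1 mouse left out the log2 differences ranged from -0.24 (without NO_AG 1) to 1.29 for Lum, from -1.72 to 0.93 (without AG 1) for Pdgfra, from -0.13 (without NO_AG 1) to 0.79 for B2m and from -0.48 (without NO_AG 1) to 0.94 for H2-K1, which was -0.088 without AG 2. They ranged from -0.22 to 1.34 (without AG 1) for Cxcl12, from -0.61 to 0.19 (without AG 1) for Meg3, from -0.010 (without AG 1) to 1.31 for C3 and from -2.87 to 0.91 (without AG 2) for Cxcl13. Meg3 was 0.032 without NO_AG 2. B2m was 1.12 with a collagen sum of at least 20. H2-K1 was -0.090 with a collagen sum of at least 80 and -0.74 with thinned cells, and Cxcl12 was 0.021 with a pseudocount of 1. In Pi16-like cells Meg3 was 0.48, Dpp4 -0.53, C3 -0.25 and Vim 0.022, and without cells holding a melanocyte UMI Meg3 was 0.82.

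The fits with no Krt5 or Krt14 UMI and with at least 10 fibroblasts a library, and every fit with AG_CPI, were not run because libraries held too few cells.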

Other observations

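Papillary dermis genes (Apcdd1, Axin2, Col23a1, Ntn1, Lef1 and Trps1) were found together mainly in NO_AG fibroblasts. At least 2 of them were present in 16 cells, 12 in NO_AG 1, 3 in NO_AG 2 and 1 in AG 1, and none of the 16 was Pi16-like. Of these, 13 are the papilla and sheath-like cells described above, so this is largely the same set of cells. Their summed level was 5.67 and 4.41 UMIs per 10000 in NO_AG, 0.946 and 1.67 in AG, and 0 in both AG_CPI mice.

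Crabp1, which binds retinoic acid, was carried by few cells. Its mean was 30.8 UMIs per 10000 in NO_AG 2, 0.876 in NO_AG 1, 0.675 in AG 1 and 0 in AG 2. The NO_AG 2 value rests on 3 of its 10 cells; Pi16-like cells there were at 0 and papilla and sheath-like cells at 3.94.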
